A study of Mus musculus with 6 samples.

Results

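The miR-362 and miR-532 cluster is a group of miRNA hairpins on the mouse X chromosome that lie within the transcribed span of Clcn5, the gene of the chloride and proton exchanger ClC-5. Its members here were the 7 miRNAs with the array names miR-362-5p, miR-362-3p, miR-532-5p, miR-532-3p, miR-500, miR-501-3p and miR-188-5p, out of 611 mouse miRNAs on the array. The cluster was chosen by the measured detection of miR-362-5p, on control arrays and not on knockout arrays, so the genotype difference of miR-362-5p is described below without a test. The other 6 members belong by their place in the genome.

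The arrays measured miRNA in bone-marrow-derived macrophages, which are macrophages grown from bone marrow, of female C57BL/6 mice. The knockout group (3 samples) came from MxCre-RBP-J f/f mice, whose Rbpj alleles are both floxed, and the control group (3 samples) from MxCre-RBP-J f/+ mice with 1 floxed allele, although the sample titles call the controls WT. Both groups carried the Mx promoter-driven Cre, which interferon switches on in many cell types, both received poly(I)-poly(C) to induce it, and all macrophages were stimulated with lipopolysaccharide (LPS) for 24 h. The study asked which miRNAs lie downstream of Notch signalling, for which RBP-J is the DNA-binding factor. A miRNA array cannot show Rbpj mRNA, so the deletion was not checked, and the labels do not say whether the replicates were separate animals or cultures. The p-values therefore cover only the spread among these 6 samples, which may be technical.

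A miRNA hairpin is cut from a longer transcript and can yield a mature strand from each arm, named 5p and 3p. The seed, bases 2 to 8 of the mature strand, largely decides which mRNAs it pairs with. Hairpins that sit close together on a strand can be cut from a shared transcript, so neighbours are often compared for shared levels, although each mature strand is also loaded and degraded on its own. In published work, miR-362-5p and miR-500 have been tied to CYLD, an inhibitor of NF-κB signalling, in human cancer cells, miR-532-5p to the transcription factor RUNX3 in human cancer cells, and miR-188 to the choice between bone and fat fates of mouse marrow stromal cells.

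The mature strands are shown first because they tell which members share a seed and could be confused on an array. Names matched RefSeq entries (GRCm38.p6) for 5 of the 7 members. miR-500 carries no arm in the array's name, so both of its arms are given, and miR-532-5p is named only. Sequences run 5′ to 3′ with the seed in capitals.
mmu-miR-362-5p: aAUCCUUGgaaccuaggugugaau
mmu-miR-500-5p: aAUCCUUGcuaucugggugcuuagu
mmu-miR-501-5p: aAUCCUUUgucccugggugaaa
mmu-miR-188-5p: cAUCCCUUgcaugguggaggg
mmu-miR-362-3p: aACACACCuguucaaggauuca
mmu-miR-500-3p: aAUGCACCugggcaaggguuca
mmu-miR-501-3p: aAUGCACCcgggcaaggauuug
mmu-miR-532-3p: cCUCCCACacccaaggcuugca
mmu-miR-188-3p: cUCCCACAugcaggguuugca

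miR-362-5p and miR-500-5p share the seed AUCCUUG and differ at 8 of the 24 positions both have. miR-500-3p and miR-501-3p share the seed AUGCACC and differ at 4 of 22 positions, which are U9C, G18A, C21U and A22G with the base of miR-500-3p first and positions counted from the 5′ end. The Mir362 hairpin (chrX:7241982-7242046, minus strand) is shown because it carries both miR-362 strands, here in capitals, neither of which was detected on a knockout array.
Mir362: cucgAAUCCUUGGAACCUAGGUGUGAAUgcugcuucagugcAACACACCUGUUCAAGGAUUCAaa

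All 5 hairpins lie on the minus strand of chromosome X in GRCm38.p6. In the order of that strand they are Mir532 (chrX:7248402-7248497), Mir188 (chrX:7247989-7248056), Mir362, Mir501 (chrX:7241243-7241351) and Mir500 (chrX:7237683-7237774). Clcn5 has 2 annotated starts on the same strand in the RefSeq promoter table. All 5 hairpins lie downstream of the start with the promoter window chrX:7319309-7319608 and upstream of the start with the window chrX:7188665-7188964. The RBP-J core motif TGGGAA, searched on both strands, was present in 25.6% of 32851 promoter windows of 300 bases, and its longer form GTGGGAA, which contains it, in 6.38%. Neither of these strings occurred in the 2 Clcn5 windows.

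Signals are array brightness, and the number of arrays limits their precision. Brightness differed between the genotypes across the arrays as a whole. The summed miRNA signal was 63161, 48837 and 59457 units on knockout arrays 1, 2 and 3, against 72215, 68087 and 84981 units on control arrays 1, 2 and 3, so every knockout array was dimmer. Each signal was therefore divided by the array's 75th percentile over 200 probes well above background on all 6 arrays, which was 227, 186 and 226 units on knockout arrays and 288, 243 and 352 units on control arrays. Scaled signals are given as a percentage of that percentile, and log2 values were floored at 5.01%. A miRNA was detected on an array when at least 50% of the usable spots of its brightest probe were well above background, and the number of miRNAs detected was 127 to 141 on knockout arrays and 127 to 137 on control arrays. The 6 miRNAs listed for macrophages and myeloid cells, miR-223, miR-142-3p, miR-142-5p, miR-155, miR-146a and miR-21, were detected on all 6 arrays. Whether they mark those cells alone was not tested. The lymphoid marker miR-150 was detected on none, miR-181a and miR-181b on all, and the 21 markers of erythroid, endothelial, stromal, epithelial, muscle and neural cells on none.

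The cluster divided into 3 members detected on all 6 arrays (miR-188-5p, miR-500 and miR-532-5p), 3 detected on some arrays (miR-362-5p, miR-362-3p and miR-532-3p) and miR-501-3p, detected on no array. miR-362-5p was detected on 0 of 3 knockout and 3 of 3 control arrays. It was the 1 miRNA of 611 with that pattern (0.164%), which is how it was noticed. Of the 611, 452 were detected on no array and so could not show it. With 1 bright spot enough, 3 of 611 had the pattern (0.491%), and miR-362-5p was not among them. With at least 50% of all spots of any probe required, 2 of 611 had it (0.327%), miR-362-5p included. miR-362-3p, from the other arm of the same hairpin, was detected on 0 of 3 knockout and 2 of 3 control arrays. miR-532-3p was detected on 1 of 3 knockout and 2 of 3 control arrays.

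**Figure D1:**
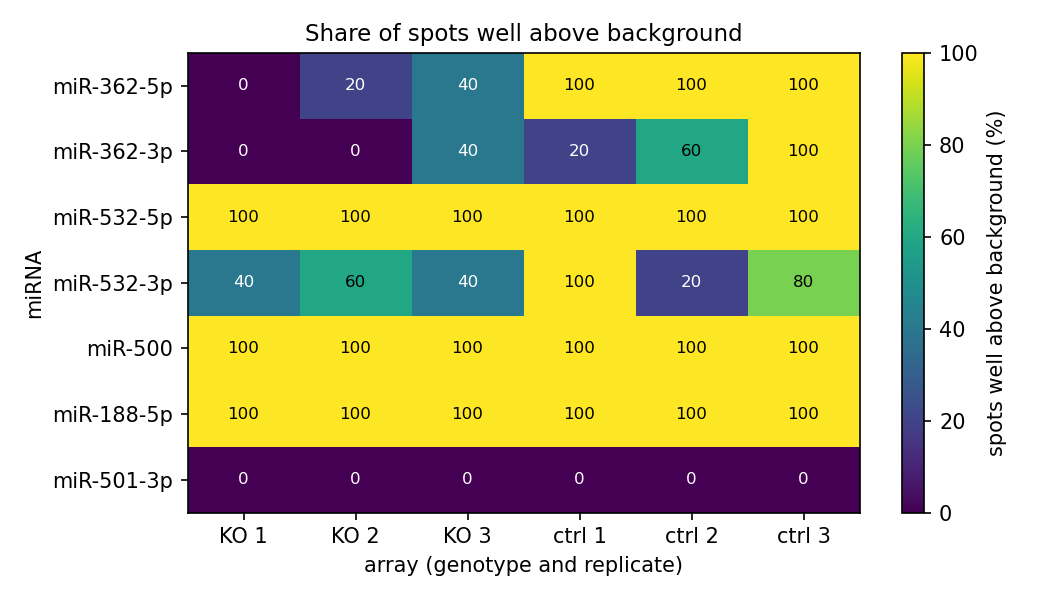
Share of usable spots well above background (%, colour and printed number) for each member (down the page) on the 3 knockout (KO) and 3 control (ctrl) arrays. miR-362-5p reached 100% on every control array and at most 40% on a knockout array, while miR-532-5p, miR-500 and miR-188-5p reached 100% and miR-501-3p 0% everywhere.

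The detection gap of miR-362-5p depended on where the line was drawn. The share of its spots well above background was 0%, 20% and 40% on knockout arrays 1, 2 and 3, against 100% on every control array. With 1 bright spot enough, it was detected on 2 of 3 knockout and 3 of 3 control arrays. The scanner software's gene-level call, a separate entry from the total intensity of a miRNA, marked it as detected on all 3 knockout and all 3 control arrays. The rule behind that call was not examined. Bright spots were present on 2 of 3 knockout arrays, 1 of 5 usable spots on knockout array 2 and 2 of 5 on knockout array 3. The dimmest signal of any detected probe was 11.6, 9.67 and 11.4 units on knockout arrays, against 12.9, 11.1 and 11.7 units on control arrays. Divided by the array's 75th percentile, this limit was higher on every knockout array than on any control array. In scaled signal the detection counts therefore compare unlike limits, and the effect of this on them was not tested.

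The processed intensity of miR-362-5p was 8.54, 9.05 and 11.2 units on knockout arrays, against 21.4, 13.3 and 18.2 units on control arrays. In scaled signal this was 3.76%, 4.86% and 4.94% in knockout and 7.44%, 5.47% and 5.18% in control samples, with means of 4.52 ± 0.66% and 6.03 ± 1.23% (SD, n = 3 each). The knockout arrays lay below every control array, but the highest knockout value (4.94%) and the lowest control value (5.18%) almost touched, and control replicate 1 stood above the rest. In these bulk samples, fewer cells that make a miRNA and less of it per cell cannot be told apart.

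All 3 knockout values of miR-362-5p were at the floor on the log2 scale, so a fold can be given only as a bound. The control mean was -4.07 on the log2 scale. The dimmest signal that counts as above background on the knockout arrays was -4.29 on average, which gave a bound of 1.16-fold for control over knockout. This bound takes no account of array error and comes from the values that drew attention to miR-362-5p. It also rests on control replicate 1, without which the control mean was -4.23. The log2 difference, knockout minus control, was -0.25 with the floor, which the choice of floor sets in part and which is no bound. It was -0.088 without control replicate 1 and -0.88 in the authors' series matrix, and its direction turned under normexp background correction, to 0.20. Non-overlap of this kind, with knockout lower in unfloored scaled signal, occurred for 4 of the 134 tested miRNAs (2.99%). In unscaled intensity it occurred for 37 (27.6%). The opposite, with every knockout array above every control array, was counted on the floored log2 scale only. It occurred there for 10 tested miRNAs (7.46%), beside 4 (2.99%) with knockout lower on that scale. None of the 10 was one of the 4 tested mates.

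Only the brightest of the 4 probes for miR-362-5p was detected. The next probe gave 2.26%, 1.52% and 2.75% on knockout arrays, against 4.21%, 2.91% and 1.95% on control arrays. On that probe the genotypes overlapped, and the share of bright spots was 20% on control replicate 1 and 0% on the other arrays. The remaining 2 probes were below 0% on every array.

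miR-362-3p, the other strand of the Mir362 hairpin, was 7.72, 6.70 and 9.50 units on knockout arrays, against 11.6, 11.9 and 16.0 units on control arrays. Its scaled signal was 3.40%, 3.59% and 4.21% in knockout and 4.01%, 4.89% and 4.54% in control samples, all under the floor of 5.01%. The unscaled values did not overlap and the scaled values did. It was detected on fewer than 3 arrays and so was not tested, and no fold is given because every scaled value lay under the floor. Under the floor is not the same as undetected, as all 10 spots on control replicate 3 were well above background. Control replicate 1, the brightest array for miR-362-5p, was the dimmest control array for miR-362-3p in scaled signal. Its second probe gave 2.24 ± 0.63% in knockout and 2.50 ± 0.22% in control samples (SD, n = 3 each).

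**Figure D2:**
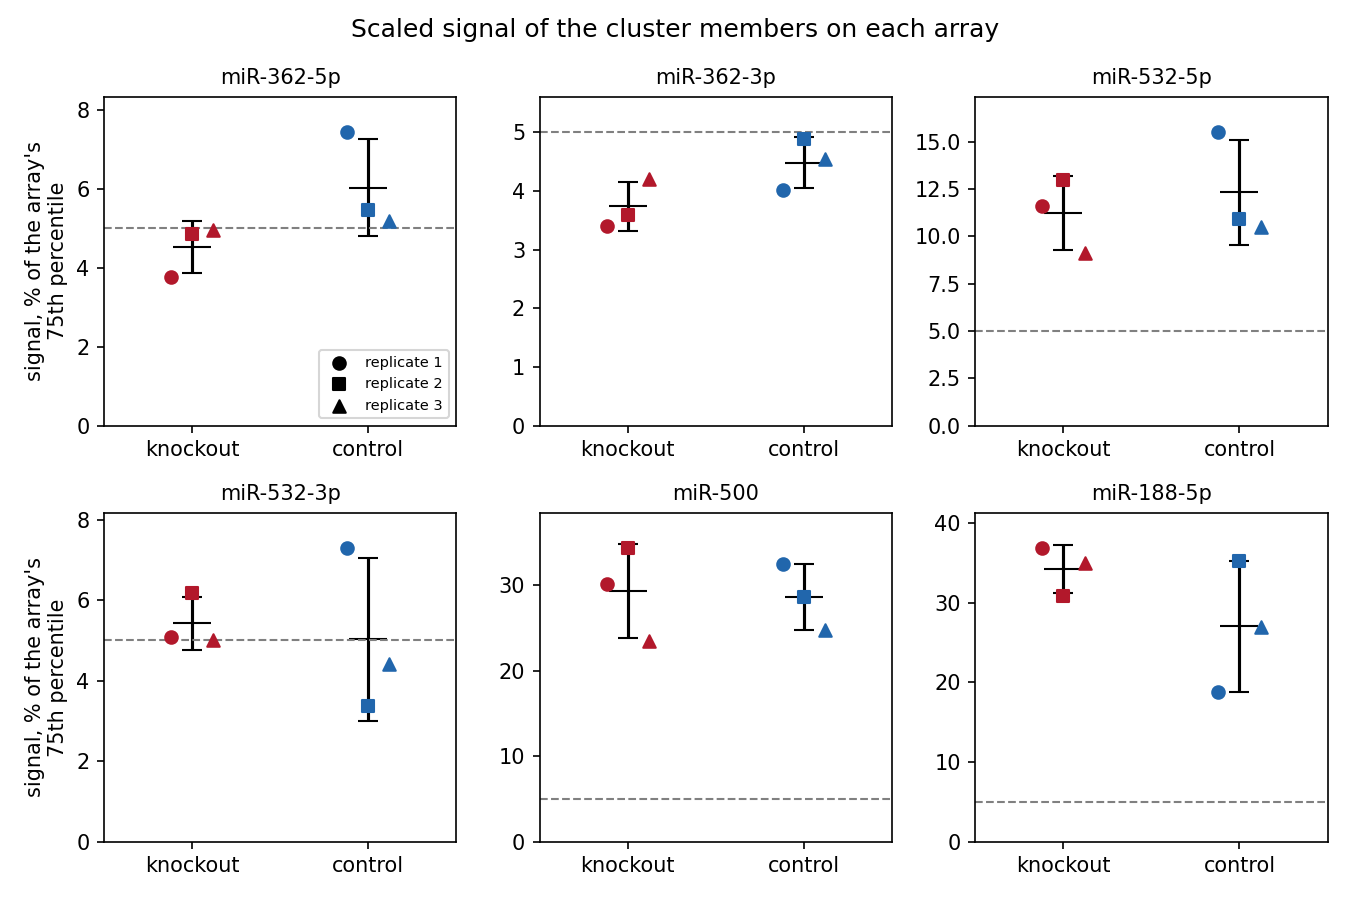
Signal of 6 members as a percentage of the array's 75th percentile (vertical axes, linear) in knockout (left, red) and control (right, blue) samples. Symbols are replicates, bars the mean ± SD of 3 arrays, and the dashed line the floor at 5.01%; miR-362-5p falls on either side of that line by genotype, and in the other panels the genotypes overlap.

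miR-532-5p, from the Mir532 hairpin at the 5′ end of the cluster, was bright enough for a test on every array. Its intensity was 26.3, 24.1 and 20.6 units on knockout arrays, against 44.7, 26.6 and 37.0 units on control arrays. Scaled, this was 11.6%, 13.0% and 9.12% in knockout and 15.5% and 10.9% in control samples 1 and 2, with a lower value in replicate 3 (control mean 12.3 ± 2.79%, SD, n = 3). Without scaling every knockout array was dimmer, and after scaling the genotypes overlapped, with control replicate 1 the highest. The log2 difference was -0.13 (SE 0.22, 95% interval -0.62 to 0.37, limma adjusted p = 0.796), and it became 0.051 without control replicate 1, 0.015 without knockout replicate 3 and 0.16 under normexp background correction. These values are from the brighter probe. The second probe of miR-532-5p was detected on 0 of 3 knockout and 2 of 3 control arrays. It gave 3.41 ± 1.18% in knockout and 4.06 ± 0.94% in control samples (SD, n = 3 each).

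miR-532-3p, from the other arm of that hairpin, was dim. Scaled signal was 5.09%, 6.19% and 5.01% on knockout arrays, against 7.30%, 3.38% and 4.42% on control arrays. The knockout values lay inside the control range, which ran from the lowest to the highest value of all 6 arrays. The log2 difference was -0.071 (SE 0.20, 95% interval -0.53 to 0.39, limma adjusted p = 0.894), with a sign that changed to 0.11 without control replicate 1 or with a lower floor and to 0.27 under normexp. The other 3 probes for miR-532-3p were detected on no array.

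miR-500 gave 68.3, 63.9 and 52.8 units on knockout arrays, against 93.4, 69.5 and 87.1 units on control arrays. Scaled, it was 30.1%, 34.3% and 23.4% in knockout and 32.4%, 28.6% and 24.7% in control samples. As for miR-532-5p, the unscaled genotypes did not overlap and the scaled ones did. The log2 difference was 0.024 (SE 0.20, 95% interval -0.43 to 0.48, limma adjusted p = 0.971), and it was below 0 under 5 other ways of scaling or summarising the signal, down to -0.43 without scaling. The second probe of miR-500 gave 11.7 ± 2.31% in knockout and 11.2 ± 2.17% in control samples (SD, n = 3 each). miR-501-3p, whose strand differs from miR-500-3p at 4 positions, stayed at 1.90%, 1.02% and 1.03% on knockout arrays and 1.82%, -0.67% and 1.51% on control arrays, with no bright spot.

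miR-188-5p was the member with the highest fitted difference, and it lay on the other side of 0 from miR-362-5p. Its intensity was 83.7, 57.6 and 78.9 units on knockout arrays, against 54.2, 85.6 and 95.2 units on control arrays. Scaled, it was 36.9%, 30.9% and 35.0% in knockout and 18.8%, 35.3% and 27.0% in control samples. The genotypes overlapped, and control replicate 1, the highest array for miR-362-5p, was the lowest for miR-188-5p. All 4 probes for miR-188-5p gave their lowest scaled signal there, between 18.1% and 18.8%. The log2 difference was 0.38 (SE 0.24, 95% interval -0.16 to 0.93, limma adjusted p = 0.634). It was 0.15 without control replicate 1 and -0.072 without scaling.

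Between genotypes, 0 of the 4 tested mates and 0 of all 134 tested miRNAs passed the limma threshold of an adjusted p of 0.05 (0% called). At an unadjusted p under 0.05, 6 of 134 passed (4.48%), 5 higher and 1 lower in knockout macrophages, and none of the 4 mates was among them. That split turned with the scaling, to 1 higher and 10 lower after quantile scaling, 0 and 25 without scaling, 0 and 5 with all probes as the percentile's reference, 1 and 5 with gene-level totals and 1 and 7 in the series matrix, while normexp gave 29 higher and 3 lower. In unscaled intensity, miR-532-5p and miR-500 were among the 27.6% of tested miRNAs whose knockout arrays were all dimmer, and miR-532-3p and miR-188-5p were not. The intervals above leave differences of up to 0.93 on the log2 scale possible for miR-188-5p and of down to -0.62 for miR-532-5p. The median difference of all tested miRNAs was 0.12, and under other scalings it ran from -0.31 without scaling to 0.24 under normexp. Relative to it, miR-362-5p was at -0.37, miR-532-5p at -0.24, miR-532-3p at -0.19, miR-500 at -0.093 and miR-188-5p at 0.27. Relative to the median, miR-532-5p was below 0 and miR-188-5p above 0 under all 20 alternatives, with ranges of -0.35 to -0.071 and 0.024 to 0.45. The alternatives reuse the same arrays, and the blocks, variance model and filters cannot change a member's own difference. Their number is therefore no measure of support. The values of -0.071 and 0.024 both came without control replicate 1.

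**Figure D3:**
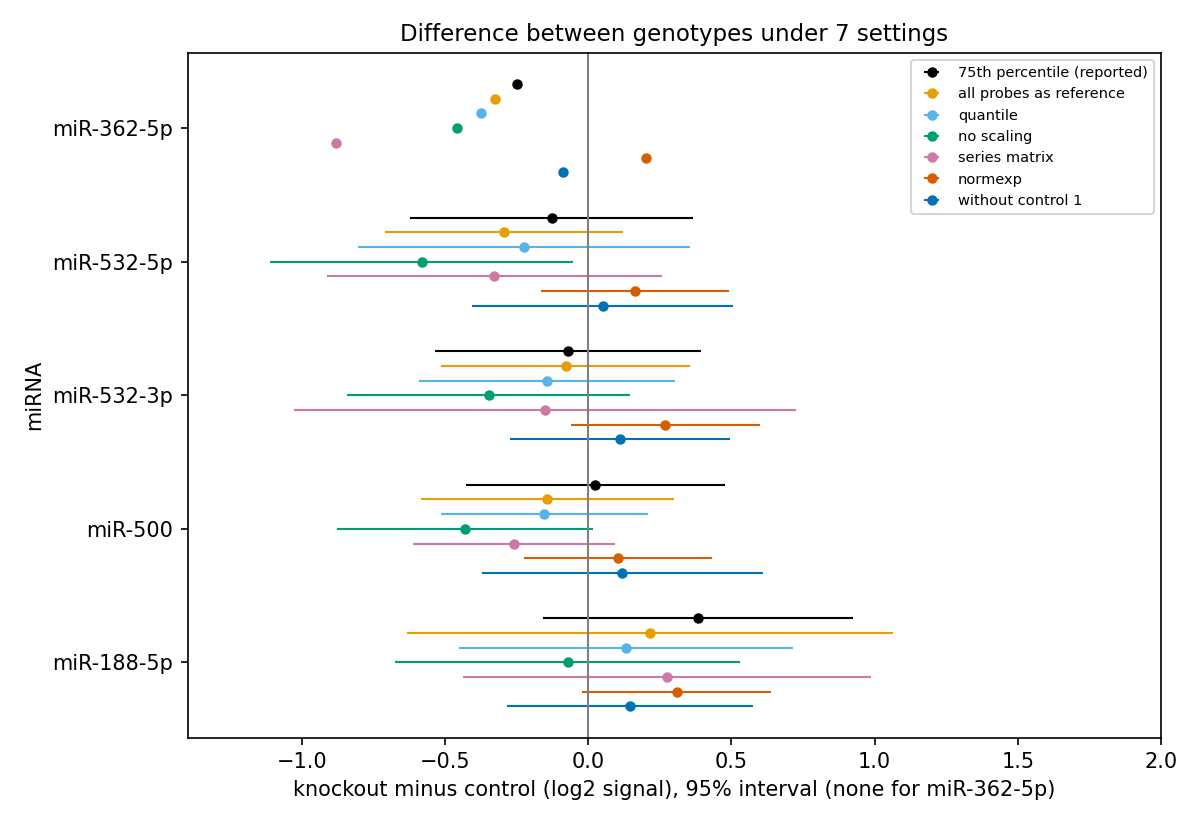
Knockout minus control difference in log2 signal (horizontal axis) of the 5 tested members under 7 settings, with 95% intervals from limma for the 4 mates and none for miR-362-5p. Points of all 5 members, miR-362-5p included, fall on both sides of 0 depending on the setting.

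The position on the slide followed genotype. Knockout arrays lay in rows 2 and 4 and control arrays in rows 1 and 3, so row and genotype cannot be told apart. Both slide columns held both genotypes. The difference of miR-362-5p was -0.35 in column 1 (replicates 1 and 2) and -0.049 in column 2 (replicate 3). That of miR-188-5p was 0.39 in column 1 and 0.37 in column 2, and that of miR-532-5p -0.089 in column 1 and -0.20 in column 2. miR-532-3p differed by -0.11 in column 1 and 0 in column 2, where both arrays were at the floor, and miR-500 by 0.076 in column 1 and -0.079 in column 2.

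Whether the mates followed miR-362-5p from array to array was compared for the 4 tested mates in scaled, unfloored signal over the 6 arrays. Both values of a pair share the scaling factor of their array, and the 3 knockout values of miR-362-5p lie under the floor. For miR-532-5p, Pearson's r was 0.65 and Spearman's rho 0.14 (two-sided exact permutation p = 0.231 and 0.803, adjusted over the 4 mates 0.452 and 0.919). For miR-532-3p, r was 0.49 and rho -0.086 (exact permutation p = 0.339 and 0.919, adjusted 0.452 and 0.919). For miR-500, r was 0.22 and rho -0.086 (exact permutation p = 0.761 and 0.919, adjusted 0.761 and 0.919). For miR-188-5p, r was -0.86 and rho -0.60 (exact permutation p = 0.0861 and 0.242, adjusted 0.344 and 0.919). None of the 4 relations passed after adjustment.

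These coefficients rested on the outer arrays. Without the 2 arrays farthest from the median of miR-362-5p, control replicate 1 and knockout replicate 1, r was -0.18 for miR-532-5p, -0.96 for miR-532-3p, -0.21 for miR-500 and 0.19 for miR-188-5p (4 arrays). Every sign had turned. Without control replicate 1 alone, a comparison chosen after seeing the data, r was -0.27, -0.48, -0.29 and -0.44 for the same mates in that order (5 arrays). In unscaled intensity r was 0.92 for miR-532-5p, 0.81 for miR-532-3p and 0.87 for miR-500 (adjusted exact permutation p = 0.0889 each), a scale that includes the lower brightness of all knockout arrays, whose part in these values was not tested. For miR-188-5p it was -0.11 (adjusted p = 0.858, exact permutation).

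**Figure D4:**
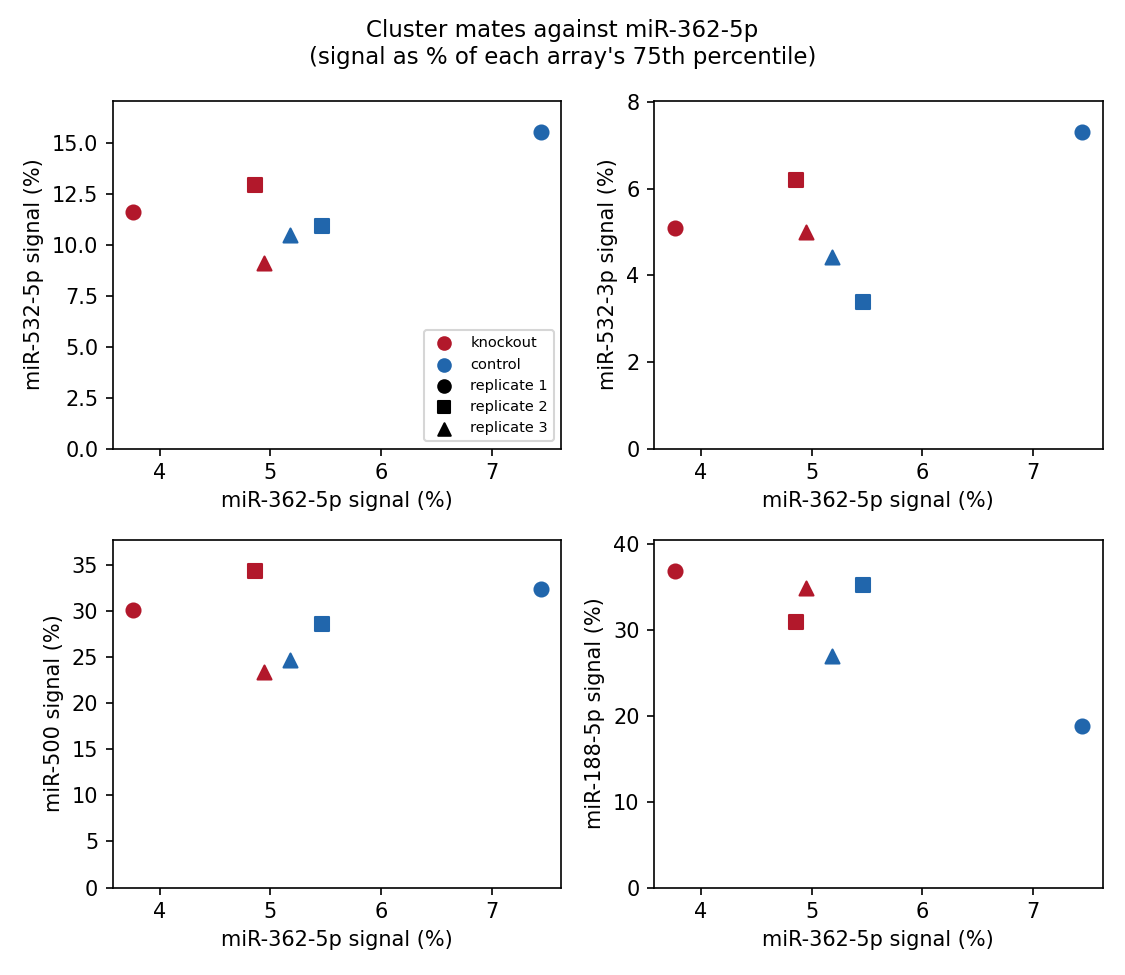
Scaled signal of 4 mates (vertical axes) against that of miR-362-5p (horizontal axis), both as a percentage of the array's 75th percentile, for 3 knockout (red) and 3 control (blue) arrays. Control replicate 1 (blue circle) lies far to the right in every panel, at 7.44% for miR-362-5p, high for miR-532-5p and miR-532-3p and lowest for miR-188-5p, and the other 5 arrays form no rising line.

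Among the mates themselves, miR-532-5p ran with miR-500 (r = 0.83) and with its hairpin partner miR-532-3p (r = 0.79) over the 6 arrays. Without control replicate 1, a comparison added after seeing the data, these were 0.97 and 0.48. miR-188-5p, whose hairpin is the nearest to Mir532, had r = -0.74 with miR-532-5p and r = -0.68 with miR-532-3p, which became -0.12 and -0.14 without that array. The strands of the Mir362 hairpin had r = 0.34 over all arrays and r = 0.86 without it, with miR-362-3p under the floor on every array. These coefficients are descriptions over 6 arrays that share their scaling factors.

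Log2 ratios of one member to another within an array, examined after seeing the data, do not depend on scaling. The ratio of miR-500 to miR-532-5p was 1.37, 1.40 and 1.36 on knockout arrays, against 1.06, 1.39 and 1.24 on control arrays, and spanned 1.06 to 1.40 over all 6. The ratio of miR-188-5p to miR-532-5p was 1.67, 1.25 and 1.94 in knockout and 0.28, 1.69 and 1.36 in control samples, with control replicate 1 far below the others. In both ratios the genotypes overlapped. For miR-362-5p to miR-532-5p, the ratio averaged -1.31 (SD 0.38) in knockout and -1.03 (SD 0.031) in control samples. For miR-362-5p to miR-500 it averaged -2.69 (SD 0.39) in knockout and -2.26 (SD 0.13) in control samples. Both include knockout signals of miR-362-5p under the floor. The genotypes overlapped in these ratios too, although the scaled signals of miR-362-5p alone did not. Knockout array 3, at -0.88, was the highest of all 6 for miR-362-5p to miR-532-5p.

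The miRNAs whose scaled signal was most like that of miR-362-5p over the 6 arrays were let-7e (r = 0.94), miR-210 (r = 0.90), miR-20a (r = 0.90), miR-99b (r = 0.90) and miR-20b (r = 0.89). Of the 129 tested miRNAs outside the cluster, 7 reached an r of 0.8 (5.43%), and the median r was -0.13. By the same measure, miR-532-5p ranked 14, miR-532-3p 19, miR-500 35 and miR-188-5p 129 among 133 tested miRNAs. These coefficients include the knockout signals of miR-362-5p under the floor and rested on control replicate 1. Without that array, in a comparison added after seeing the data, r was 0.79 for let-7e, 0.46 for miR-210, 0.64 for miR-20a, 0.42 for miR-99b and 0.82 for miR-20b, and the mates ranked 85 (miR-532-5p), 105 (miR-532-3p), 86 (miR-500) and 102 (miR-188-5p).

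Other X-linked miRNAs were listed for comparison. Of 20 on the array, 8 were tested and 0 of these passed the limma threshold. Their median difference was -0.083, with 4 above and 4 below 0, beside -0.024 for the 4 tested mates (2 above and 2 below) and 0.12 for all 134 tested miRNAs (97 above and 37 below). The split over all tested miRNAs was 14 above and 120 below without scaling, 60 and 74 when the percentile was taken over all probes, 69 and 65 with gene-level totals, 65 and 66 in the series matrix, 75 and 58 after quantile scaling and 111 and 23 under normexp. The lowest of the 8 were miR-322, an X-linked member of the miR-15/16 seed family, at -0.42 (SE 0.26) and miR-221 at -0.40 (SE 0.23). The highest were the let-7 family member miR-98 at 0.31 (SE 0.22) and miR-361 at 0.16 (SE 0.18). miR-20b, named above for its likeness to miR-362-5p, is also on this list, at -0.19 (SE 0.19).

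Further strands of the locus were on the array. miR-501-5p and miR-188-3p were detected on no array, with no bright spot on any. For miR-188, the 5p strand therefore had signal on all 6 arrays and the 3p strand on none, in knockout and control samples alike.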

How the data were processed

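The arrays were Agilent 1-colour (Cy3) mouse miRNA arrays of design 021828, 1 per sample, grouped by genotype from the titles. The file headers name Feature Extraction 10.5.1.1 and the submitters' processing notes version 9.1. Per the file headers, the deposited spot intensity had its background subtracted and spatial trends removed. No normalization between arrays was applied, and values can fall below 0. For each miRNA, a deposited gene-level table gives total intensity and a detection call. A series matrix of log2 values was also deposited. Over the brighter miRNAs, its columns correlated with each array's log2 gene-level totals at 0.999 or more. The dimmest totals were left out of that correlation, among them those of miR-362-5p on all knockout arrays and control array 2. Column medians ran from 0 to 0.029, the upper quartile averaged 2.71 over the columns, and the largest value of any column was 14.7. The steps behind the series matrix are not stated in the labels or headers, and 0 columns belonged to no sample.

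For 1759 mouse probes, the median processed intensity of spots without a non-uniformity or population flag was scaled as described above, raised to a floor, the 5th percentile of scaled signals among detected probes (log2 of -4.32), and put on the log2 scale. Each miRNA took its probe with the highest mean and was tested if detected on at least 3 of 6 arrays, which left 134 (108 were detected on all arrays). Knockout was set against control in limma 3.58.1 (lmFit, eBayes; R 4.3.3), without covariates and with Benjamini-Hochberg adjustment over all 134, and correlations by exact permutation with scipy 1.17.1. Scripts were tested on simulated data. With 3 against 3 samples, an exact two-sided test of 1 value cannot give p below 0.1, so single values were not tested that way.

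The members and comparison lists were chosen with earlier results of these data known. The text names the 7 members, other strands of their hairpins, the 5 tested miRNAs most like miR-362-5p and the 2 X-linked miRNAs at each end of the comparison list. Alternatives changed the background correction, reference percentile, scaling, filter, floor, probe rule, detection rule, summary, blocks and variance model, and left out each array. For normexp (offset 50), spot medians took the place of a mean signal column.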

Additional observations from a re-analysis of the deposited data

How the results depend on the processing

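The count of miRNAs called between genotypes was 0 under all 20 alternatives, leaving out each array included; the smallest adjusted p was 0.0702, under normexp background correction, where 32 miRNAs had an unadjusted p under 0.05 (25 without scaling). Under normexp the knockout minus control difference was 0.20 for miR-362-5p, 0.16 for miR-532-5p and 0.27 for miR-532-3p. The median of all tested miRNAs was 0.24 there, and relative to it these 3 were at -0.041, -0.080 and 0.026. The series matrix gave -0.88 for miR-362-5p, and a floor at the 1st percentile gave 0.11 for miR-532-3p. miR-500 was at -0.14 with all probes as the percentile's reference, -0.15 after quantile scaling, -0.43 without scaling, -0.11 with gene-level totals and -0.26 in the series matrix, and miR-188-5p was at -0.072 without scaling. Leaving out 1 array gave -0.35 to -0.088 for miR-362-5p, -0.24 to 0.051 for miR-532-5p, -0.17 to 0.11 for miR-532-3p, -0.100 to 0.18 for miR-500 and 0.15 to 0.60 for miR-188-5p. Correlations with miR-362-5p turned to -0.18 (miR-532-5p), -0.96 (miR-532-3p), -0.21 (miR-500) and 0.19 (miR-188-5p) without the 2 farthest arrays. Without control replicate 1, an alternative added after seeing the data, they were -0.27, -0.48, -0.29 and -0.44 for the same mates in that order. The cause of these changes was not tested. With 1 bright spot enough, miR-362-5p was detected on 5 of 6 arrays, miR-362-3p on 4 and miR-532-3p on 6. With all usable spots required, miR-362-3p and miR-532-3p were each detected on 1 array. The gene-level call detected all 3 miRNAs on 6. Another detection rule (any probe, all spots), added after seeing the data, tested 135 miRNAs and moved no member. The mean of all probes gave no value for miR-362-5p and miR-532-3p, which lay at the floor throughout, and requiring detection on all arrays dropped both.

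Same-numbered knockout and control arrays deviated together at r = 0.17, -0.073 and 0.37 for numbers 1, 2 and 3. Arrays with different numbers did so at r = -0.29 to 0.16. With 3 arrays per genotype these values cannot settle whether the numbers pair the samples, and the labels state no pairing. With the replicate number as a block, the differences stayed as they were (-0.13 for miR-532-5p), 0 miRNAs were called and 13 had an unadjusted p under 0.05.

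The limits are the 3 arrays per genotype, the confounding of slide row with genotype, and signal close to background for both miR-362 strands and miR-532-3p. For those 3, the floored log2 values cannot show differences in level below 5.01%, a floor that lay above the dimmest detected signal on every control array.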
